A study of Mus musculus with 6 samples.

Results

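Mitochondria make only a few of their own proteins and import the rest from the cytosol. Precursors pass the outer membrane through the TOM complex and enter the matrix through the TIM23 channel, pulled by a motor built on the matrix HSP70, or they are carried by small TIM chaperones to the TIM22 channel of the inner membrane. In the matrix, chaperones fold the arriving proteins and the LON, CLP and AAA proteases remove those that are damaged or unassembled. The genes described here are those whose symbol starts with Timm or Tomm followed by a digit (25 genes) together with 12 named genes of the import motor, the matrix chaperones, the proteases and the prohibitin scaffold. This gave 37 of the 24391 annotated genes. The rule uses names and no measured value, but it was proposed with earlier results of these data known.

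Their messenger RNA was measured by RNA sequencing in mRPMaxKO cells. This line (strain 129/SvJ; C57BL/6, below passage 20) was grown from a mouse lung tumour without Rb1, p53 or Max, a genotype used as a model of small cell lung cancer. MYC proteins bind DNA as pairs with MAX, and the comparison asks how these genes respond when it is put back. A polyclonal, puromycin-selected population carried a doxycycline-inducible lentiviral vector. The 3 control libraries and the 3 MAX restored libraries thus share the deletion of Rb1, p53 and Max, and they differ in the restored MAX. The labels give 4 days of doxycycline in the same words for all 6 libraries and leave unsaid which vector the controls carried and if they too received the drug, so the groups may differ in more than MAX. Whether the replicate libraries are independent cultures is not given either, and the p-values describe the spread between libraries, which may be technical.

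Each library held between 10046899 and 11925909 counts. Max itself had 639, 691 and 620 counts in controls 1, 2 and 3 and 15979, 14933 and 13369 counts in MAX restored libraries 1, 2 and 3. All 14 neuroendocrine markers, which define the labelled tumour type, were detected, with a summed level between 10603 and 11272 CPM (counts scaled to the library size after TMM normalization). The 12 fibroblast markers summed to between 4.89 and 5.22 CPM in the controls and between 6.88 and 7.84 CPM with MAX restored, with Lum at 0 in every library. The 11 immune markers summed to between 1.48 and 2.95 CPM and between 2.60 and 3.61 CPM, with Cd3e, Adgre1 and Nkg7 at 0. Of 8 endothelial markers, Cdh5 and Cldn5 were at 0, and Vwf, at 559 CPM in the controls and 432 CPM with MAX restored, made up nearly the whole sum. The other 7 endothelial markers together reached no more than 2.05 CPM in any library. The 10 lung epithelial markers summed to between 51.4 and 53.9 CPM in the controls and between 51.1 and 57.4 CPM with MAX restored. Of the 5 that were tested, Sftpc was lower (31.6 to 26.0 CPM) and 2 were higher, Foxj1 (3.72 to 8.49 CPM) and Ager (1.34 to 2.64 CPM). The part of these markers in the results was not tested. Control 1 stood apart from its group, with a chi-square per degree of freedom of 8.91 against control 2 and 10.2 against control 3, where pairs of MAX restored libraries had 1.24 to 1.46. The ribosomal RNA precursor Rn45s took 0.996% of its counts, against 0.109% to 0.187% in the other 5 libraries. Control 1 was the higher one, compared with the mean of controls 2 and 3, in 24 of the 35 members tested (median log2 difference 0.05). The share among all genes tested was not computed, so this count is not read as particular to the members. Without control 1, 25 members were lower and 1 was higher, and single calls that depend on it are named below.

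MAX with its MYC and MXD partners binds the E-box CACGTG. Windows from 250 bases before to 50 bases after the annotated start were therefore searched, as RefSeq gives them for GRCm38.p6. Some are shown with CACGTG in capitals, and of these all but that of Hspe1 hold the motif. They do not represent the members that fell most. Dnaja3 (log2 -0.66) fell about as far as Timm9 (log2 -0.65), but its window, without CACGTG, is not among them. Of the 37 members 32 matched the RefSeq table by symbol, and Tomm40l, Tomm7, Timm21, Hspa9 and Afg3l2 did not. The first are Timm10 and Timm9, 2 subunits of one chaperone of the intermembrane space, and Lonp1, the gene of the LON protease, which were among the members that fell most. Their windows lie at chr2:84826771-84827070 on the plus strand, chr12:71136626-71136925 on the minus strand and chr17:56626854-56627153 on the minus strand.
Timm10: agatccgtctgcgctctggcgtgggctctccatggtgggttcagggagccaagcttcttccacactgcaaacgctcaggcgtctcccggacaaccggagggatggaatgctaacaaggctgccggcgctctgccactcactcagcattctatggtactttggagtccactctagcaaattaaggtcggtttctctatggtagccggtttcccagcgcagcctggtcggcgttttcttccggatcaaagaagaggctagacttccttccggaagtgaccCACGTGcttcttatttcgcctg
Timm9: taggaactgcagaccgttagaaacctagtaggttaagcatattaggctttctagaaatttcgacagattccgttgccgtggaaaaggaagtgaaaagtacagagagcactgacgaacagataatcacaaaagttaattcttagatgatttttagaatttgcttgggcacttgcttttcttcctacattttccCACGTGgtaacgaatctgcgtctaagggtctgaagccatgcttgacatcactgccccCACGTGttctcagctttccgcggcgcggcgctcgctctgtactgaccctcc
Lonp1: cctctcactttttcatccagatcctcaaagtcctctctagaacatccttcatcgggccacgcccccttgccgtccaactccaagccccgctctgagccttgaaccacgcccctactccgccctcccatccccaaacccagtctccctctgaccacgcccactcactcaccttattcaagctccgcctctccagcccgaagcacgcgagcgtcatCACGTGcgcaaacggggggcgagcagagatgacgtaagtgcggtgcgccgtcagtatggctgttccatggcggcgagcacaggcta
Counted from 1 at the start of the transcript, with no zero, the E-box began at base 29 in Timm10, at bases -58 and -1 in Timm9 and at base -36 in Lonp1.

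Hspd1 and Hspe1, the genes of the chaperonin HSP60 and its lid HSP10, are neighbours transcribed away from each other on chromosome 1, with 215 bases between them in mm9. Hspd1 has 2 annotated starts in the RefSeq table. The window of the first faces Hspe1 and covers nearly the same bases as the Hspe1 window (chr1:55087898-55088197, plus strand), which has no CACGTG. The window of the other start lies beyond it, at chr1:55088194-55088493 on the minus strand, and holds 1 E-box at base -80.
Hspe1: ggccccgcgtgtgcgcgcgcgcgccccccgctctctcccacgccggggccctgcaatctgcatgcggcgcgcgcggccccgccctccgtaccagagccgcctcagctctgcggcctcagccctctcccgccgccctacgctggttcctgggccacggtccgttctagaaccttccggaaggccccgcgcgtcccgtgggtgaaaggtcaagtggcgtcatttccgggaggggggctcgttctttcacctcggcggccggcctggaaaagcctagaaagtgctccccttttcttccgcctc
Hspd1: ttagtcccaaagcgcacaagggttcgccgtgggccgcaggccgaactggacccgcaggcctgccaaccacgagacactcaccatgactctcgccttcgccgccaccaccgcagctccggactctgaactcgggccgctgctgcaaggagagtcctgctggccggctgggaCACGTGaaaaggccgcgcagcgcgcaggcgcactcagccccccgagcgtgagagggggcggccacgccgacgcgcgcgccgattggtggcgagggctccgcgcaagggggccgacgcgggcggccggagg
Tomm20, an import receptor and the only member that rose, and Phb, a prohibitin gene that did not pass the threshold, also held the motif, at bases -126 and -232. Their windows are chr8:126945872-126946171 on the minus strand and chr11:95666707-95667006 on the plus strand.
Tomm20: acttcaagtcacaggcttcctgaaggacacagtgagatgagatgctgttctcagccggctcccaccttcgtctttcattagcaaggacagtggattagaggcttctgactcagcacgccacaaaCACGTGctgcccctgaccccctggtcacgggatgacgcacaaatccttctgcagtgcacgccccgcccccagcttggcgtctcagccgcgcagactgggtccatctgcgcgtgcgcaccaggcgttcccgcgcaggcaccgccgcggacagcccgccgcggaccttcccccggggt
Phb: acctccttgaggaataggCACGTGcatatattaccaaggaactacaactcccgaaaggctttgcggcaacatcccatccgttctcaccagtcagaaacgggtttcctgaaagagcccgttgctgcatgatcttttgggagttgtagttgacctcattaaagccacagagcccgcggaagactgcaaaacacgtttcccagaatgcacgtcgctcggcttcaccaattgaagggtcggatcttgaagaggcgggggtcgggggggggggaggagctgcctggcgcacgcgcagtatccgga
CACGTG, which reads the same on both strands, was found in 9 of the 32 matched members, the other 3 being Timm8a1, Tomm20l and Tomm6os. It was in 8.09% of all genes in the table and in 11.9% of the 9671 tested genes that matched it. Of the 8 tested members with the motif 4 were lower (Timm10, Timm9, Hspd1 and Lonp1), and of the 22 without it 15 were lower. The median log2 fold change was -0.55 for these 8 and -0.26 for these 22, so the count and the median do not point the same way. Among all matched genes 41.3% with the motif and 31.5% without it were lower. The related letters CACGCG, on either strand, were in 14 of the 32 members, in none of them sharing a base with a CACGTG. They were in 10.5% of all genes and in 20.7% of the tested genes that matched. The ATF4 and CHOP response element TGATGCAA, searched on both strands, was in none of the member windows and in 1.03% of genes. A match here is a match of letters and does not show binding.

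Most of the genes were lower with MAX restored. Of the 37 members 35 passed the filter on low counts, and 24 of these were lower and 1, Tomm20, was higher at an adjusted p under 0.05 in edgeR's quasi-likelihood test, adjusted over all 12664 genes tested. Among all genes tested 32.3% were lower and 31.2% were higher, and calls in either direction covered 25 of the 35 members and 63.5% of all genes. The median log2 fold change of the 35 members was -0.34, against -0.00361 for all genes tested, and the range ran from -1.16 in Timm10 to 0.21 in Tomm20. Falls of at least 0.5 on the log2 scale were called in 7 of the 35, against 10.6% of all genes. The CPM ranges of the groups did not overlap in 26 of the 35 members, close to the 67.1% of all genes for which this held.

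The summed level of the 37 genes was 3247, 3210 and 3241 CPM in controls 1, 2 and 3, and 2363, 2364 and 2351 CPM in MAX restored libraries 1, 2 and 3. The mean went from 3233 ± 20.1 to 2359 ± 7.32 CPM (SD, n = 3 each), which is 27.0% lower. Hspa9 and Lonp1 made up a large part of this sum and went from 1157 ± 39.7 to 685 ± 8.78 CPM, 40.8% lower. The 25 Timm and Tomm genes went from 1161 ± 24.0 to 986 ± 8.23 CPM, 15.0% lower. In sequencing of bulk RNA, fewer cells that express a gene and less RNA per cell cannot be told apart, and CPM values say how a gene stands among all counted transcripts, not its absolute amount.

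**Figure D1:**
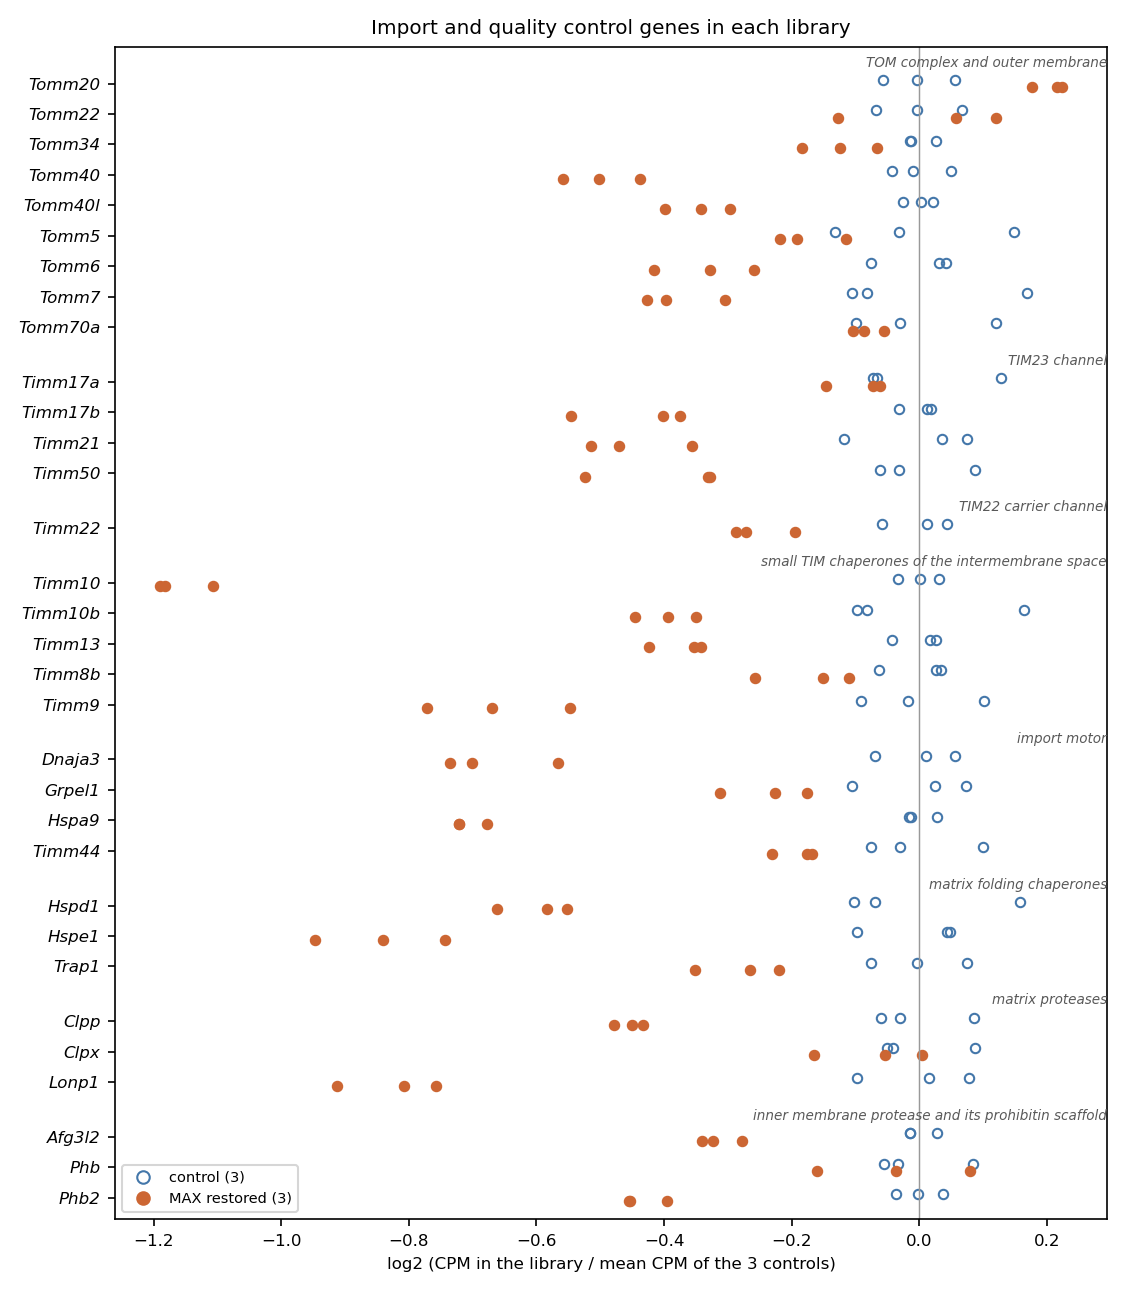
CPM of each gene in each library relative to the mean of the 3 controls (log2 axis), with open circles for the 3 controls and filled circles for the 3 MAX restored libraries, for the 32 tested members with a control mean above 5 CPM. Timm10, Hspe1, Lonp1, Hspa9, Dnaja3, Timm9 and Hspd1 lie farthest to the left, and Tomm20 alone has all 3 MAX restored libraries to the right of its controls.

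Of the TOM complex and its outer membrane partners 5 of 9 tested genes were lower, 1 was higher and 3 did not pass the threshold, with a median log2 fold change of -0.18. Tomm40, the channel itself, was at 120, 125 and 117 CPM in the controls and at 81.8, 88.9 and 85.0 CPM with MAX restored. Every MAX restored library lay below every control, and the gene fell 1.41-fold (log2 -0.50, SE 0.05, adjusted p = 2.95e-08). Its less abundant paralogue Tomm40l went from 41.4, 40.6 and 42.0 CPM to 33.7, 31.4 and 32.6 CPM, a fall of 1.27-fold (log2 -0.34, SE 0.06). Exons of Tomm40l overlap those of Nr1i3 and Apoa2 on the other strand, and the counting was without strand. Of the small subunits that stabilise the channel, Tomm6 measured 42.5, 42.8 and 39.5 CPM in the controls and 33.2, 31.2 and 34.8 CPM with MAX restored (log2 -0.33, SE 0.07). Tomm6 shares 219 exonic bases with its antisense gene Tomm6os, which held between 9 and 22 counts per library and did not pass the threshold (log2 0.17, SE 0.33). Tomm7 fell with a log2 fold change of -0.37 (SE 0.07), while Tomm5 had -0.18 (SE 0.10) and did not pass. With the gene length trend removed Tomm6 stood at -0.18 and Tomm7 at -0.23, both still called.

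None of the 3 TOM receptor genes, Tomm20, Tomm22 and Tomm70a, was called lower. Tomm20, which recognises presequences, was at 102, 98.3 and 94.7 CPM in the controls and at 111, 114 and 115 CPM with MAX restored. The groups did not overlap, and the gene rose 1.15-fold (log2 0.21, SE 0.05, adjusted p = 0.000869). The 50 tested genes around Tomm20 on chromosome 8 had a median log2 fold change of 0.23, the highest around any tested member, and the part of that neighbourhood in the rise was not tested. The gene also has near-identical copies, among them Gm14494 with 99.5% identity over 435 bases, so its counts rest on the reads that could be placed. Annotated transcripts of other genes with at least 95% identity over 200 bases or more were found for 14 of the 37 members, in part because genes overlap. Tomm70a, the receptor for carrier precursors, had a log2 fold change of -0.08 (SE 0.05), and without control 3 it was lower at -0.13 (adjusted p = 0.0466). Tomm22, the central receptor, had 0.02 (SE 0.06), and it passed as higher, at 0.17 (adjusted p = 0.0221), when the trend with gene length was removed. Tomm34, a cytosolic co-chaperone of import, had the smallest change among the 25 members called (log2 -0.12, SE 0.05, adjusted p = 0.0290). That call was lost with DESeq2 (adjusted p = 0.0793), with upper quartile scaling (0.0802), with the gene length trend removed (0.0972) and without MAX restored library 1 (0.0910) or library 3 (0.150). Tomm20l, a paralogue of Tomm20, had 4 counts in the controls and 5 with MAX restored and was not tested.

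At the TIM23 channel 3 of 5 genes were lower, and the median log2 fold change was -0.39. Timm50, the receptor that takes precursors over from TOM, was at 99.97, 111 and 102 CPM in the controls and at 82.9, 83.1 and 72.5 CPM with MAX restored (log2 -0.39, SE 0.06, adjusted p = 4.63e-06). Timm17b, one of a pair of alternative channel subunits, was at 52.3, 52.0 and 50.5 CPM and then at 39.8, 39.0 and 35.3 CPM (log2 -0.44, SE 0.06, adjusted p = 3.25e-06). The groups of both genes were separate, and Timm50 stood at -0.26, still called, with the gene length trend removed. The other alternative subunit, Timm17a, had a log2 fold change of -0.09 (SE 0.07) and did not pass. Timm21, which links TIM23 to the respiratory chain, was lower at -0.44 (SE 0.12). Timm23, the pore subunit, held between 8 and 18 counts per library and did not pass (log2 -0.22, SE 0.34). GRCm38 annotates several near-identical copies of it, the longest match being Gm10273 with 99.9% identity over 1121 bases. Its count, far below that of its partners, is therefore uncertain, and the share of its reads lost to such copies was not measured. Timm22, the channel for carrier proteins of the inner membrane, was lower at -0.25 (SE 0.06).

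The small TIM proteins ferry hydrophobic precursors across the intermembrane space as hexamers, TIM9 with TIM10 and TIM8 with TIM13. Of their genes 4 of 6 tested were lower (median -0.45). Timm10, on chromosome 2 of mm9 from 84667178 to 84670370, fell most of all members. It was at 22.5, 21.6 and 22.1 CPM in the controls and at 10.2, 9.71 and 9.66 CPM with MAX restored, a fall of 2.23-fold (log2 -1.16, SE 0.09, adjusted p = 2.15e-09). The highest MAX restored value was below the lowest control by a wide margin compared with the spread in either group. Timm9, on chromosome 12 from 72224159 to 72237662, went from 23.4, 20.5 and 21.6 CPM to 14.9, 13.7 and 12.8 CPM (log2 -0.65, SE 0.10, adjusted p = 6.11e-06), also without overlap. Timm13 was at 94.8, 94.2 and 90.4 CPM and then at 72.9, 73.4 and 69.4 CPM (log2 -0.37, SE 0.05). Timm10b, a TIM22-bound relative of TIM10, was lower at -0.40 (SE 0.09). With the gene length trend removed Timm10 stood at -0.95, Timm9 at -0.51, Timm13 at -0.24 and Timm10b at -0.24, all still called. Timm8b had -0.17 (SE 0.09) and did not pass over all libraries, but it did without control 1 (-0.21, adjusted p = 0.0464). Timm8a1, whose human counterpart is mutated in a deafness-dystonia syndrome, held between 5 and 19 counts and did not pass (log2 -0.51, SE 0.40). Its value ran from -0.97 without MAX restored library 3 to -0.16 without MAX restored library 2. Gm9797 matches it without a difference over 612 bases, so its count is uncertain too. Its relative Timm8a2 had 1 count in each group and was not tested.

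All 4 members grouped here as the import motor were lower (median log2 fold change -0.45). This group does not hold every gene that works with the motor. Others are in the list of translocase partners below, where 5 of 8 were lower, 1 (Grpel2) was higher and 2 did not pass. Hspa9, the matrix HSP70 (mortalin) that pulls precursors in, lies on chromosome 18 from 35097069 to 35114005 and was the most abundant member. It was at 653, 652 and 672 CPM in the controls and at 400.1, 399.8 and 412 CPM with MAX restored, a fall of 1.63-fold (log2 -0.71, SE 0.03, adjusted p = 3.43e-13). The control values lay within 20 CPM of each other and the groups were far apart. Dnaja3, a J-protein that works with mortalin, was at 124, 117 and 128 CPM and then at 75.7, 83.1 and 73.9 CPM (log2 -0.66, SE 0.05, adjusted p = 1.40e-09). Grpel1, the nucleotide exchange factor of mortalin, was lower too, going from 71.7, 69.3 and 63.3 CPM to 54.9, 58.3 and 60.3 CPM (log2 -0.24, SE 0.06, adjusted p = 0.00121). Exons of Grpel1 overlap those of Tada2b on the other strand, and its 50 neighbours had a median of 0.14. Timm44, which tethers mortalin to the channel, was lower at -0.19 (SE 0.05).

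The folding chaperones of the matrix were lower in 3 of 3. Hspe1, on chromosome 1 from 55144992 to 55148161, was at 39.9, 36.1 and 40.0 CPM in the controls and at 23.1, 20.1 and 21.6 CPM with MAX restored, a fall of 1.79-fold (log2 -0.84, SE 0.08, adjusted p = 1.11e-08). With the gene length trend removed Hspe1 stood at -0.65, still called. Its neighbour Hspd1, from 55134678 to 55144776, was at 145, 121 and 124 CPM and then at 82.2, 86.8 and 88.7 CPM, a fall of 1.51-fold (log2 -0.60, SE 0.06, adjusted p = 5.28e-08). Control 1 was the highest library for Hspd1, and the other controls were also above every MAX restored library. Hspd1 has an annotated pseudogene, Hspd1-ps3, with 99.0% identity over 1722 bases, which can take reads from it. Trap1, the mitochondrial HSP90, was lower too, going from 96.2, 107 and 101 CPM to 84.4, 79.5 and 87.1 CPM (log2 -0.28, SE 0.05, adjusted p = 7.40e-05).

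Of the 3 matrix protease genes Lonp1 and Clpp were lower and Clpx did not pass the threshold. Lonp1, on chromosome 17 from 56753722 to 56766326, encodes the protease that degrades oxidised and unfolded matrix proteins. It was at 465, 502 and 525 CPM in the controls and at 284, 294 and 264 CPM with MAX restored, a fall of 1.77-fold (log2 -0.82, SE 0.05, adjusted p = 5.88e-12). Control 1 was the lowest control for Lonp1 and still lay well above the MAX restored libraries. Clpp, the proteolytic chamber of CLPXP, was at 54.3, 58.9 and 53.2 CPM and then at 40.6, 41.1 and 39.8 CPM (log2 -0.45, SE 0.06, adjusted p = 1.21e-06). Clpx, the unfoldase that feeds that chamber, was at 67.1, 61.0 and 61.4 CPM and then at 60.9, 56.3 and 63.4 CPM (log2 -0.07, SE 0.06, adjusted p = 0.294). Its groups overlapped.

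At the inner membrane Afg3l2, a subunit of the m-AAA protease, was at 123, 119 and 119 CPM in the controls and at 96.5, 95.3 and 99.5 CPM with MAX restored (log2 -0.31, SE 0.05, adjusted p = 6.52e-06). Phb2, one of the prohibitins that form a ring around that protease, was at 201, 191 and 196 CPM and then at 149, 143 and 143 CPM (log2 -0.43, SE 0.04, adjusted p = 6.60e-08). Neither gene had overlapping groups. Phb, the other prohibitin, was at 20.3, 18.7 and 18.4 CPM and then at 18.6, 17.1 and 20.2 CPM (log2 -0.04, SE 0.09, adjusted p = 0.735), with overlapping groups. Gm7666 is 99.9% identical to Phb over 819 bases, so the low count of Phb is uncertain.

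Levels of different genes can be compared only per length, as CPM per kilobase of exons. On that scale Hspa9 was highest in the controls (217 ± 3.70, SD, n = 3), followed by Lonp1 (168 ± 10.3) and Phb2 (144 ± 3.66), each apart from the next by more than their spread. With MAX restored the second and the third changed places, Phb2 at 107 ± 2.56 and Lonp1 at 94.7 ± 5.14. Timm50 came next in both groups (88.4 ± 4.89 in the controls), and Timm13 (76.0 ± 1.95) and Tomm40 (72.3 ± 2.36) followed. From Hspd1 (55.8 ± 5.60) down to Tomm7 (39.3 ± 4.26) each gene differed from the next by less than the larger of their SDs, and no order is read among them. Hspe1 went from 50.3 ± 2.86 to 28.1 ± 1.98 and Timm10 from 33.1 ± 0.737 to 14.8 ± 0.481. Phb stood at 10.6 ± 0.560 and its partner in the ring, Phb2, at 144 ± 3.66, the count of Phb being uncertain.

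**Figure D2:**
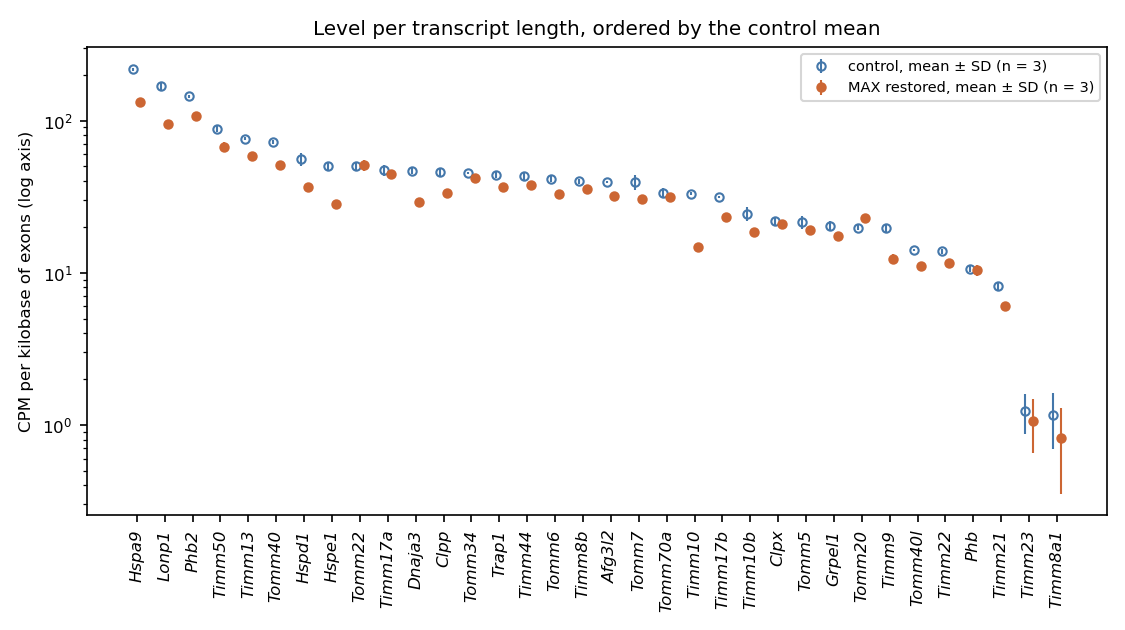
CPM per kilobase of exons (log axis) for the 34 members with a control mean of at least 0.5, ordered by the control mean. Circles are means and bars the SD over 3 libraries, open for control and filled for MAX restored, and most filled circles lie below the open ones while Tomm20 lies above.

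The balance between partner genes was read from the log2 ratio of their levels per length in each library, which cancels the library scaling, for 10 pairs. The ratio of Timm9 to Timm10 was -0.69, -0.82 and -0.78 in the controls and -0.20, -0.25 and -0.34 with MAX restored, a shift of 0.50. For Hspa9 over Grpel1 it was 3.32, 3.37 and 3.54 and then 3.00, 2.91 and 2.91, a shift of -0.47. These are the pairs in which the balance moved farthest, and the groups of both were separate. The ratio of Phb to Phb2 shifted by 0.40, that of Clpx to Clpp by 0.38, that of Lonp1 to Clpp by -0.37, that of Timm17a to Timm17b by 0.35, that of Tomm20 to Tomm70a by 0.28 and that of Timm8b to Timm13 by 0.20, all without overlap between groups. For Hspd1 over Hspe1 the shift was 0.25, and for Tomm40 over Tomm40l it was -0.15, both with overlap. The share of other gene pairs with separate groups was not computed. The groups were separate for 67.1% of all single genes tested, so separation alone does not set these pairs apart. With 3 against 3 libraries the exact two-sided permutation test cannot give a p below 0.1. It gave 0.1 for the 8 pairs without overlap (0.125 after Benjamini-Hochberg adjustment over the 10 pairs) and 0.2 for the other 2, so this test could not call a shift at a threshold of 0.05 whatever its size, and its p says nothing about the shifts. Beside their spread, the ratio of Timm9 to Timm10 went from -0.76 ± 0.07 to -0.26 ± 0.07 and that of Hspa9 to Grpel1 from 3.41 ± 0.12 to 2.94 ± 0.05 (SD, n = 3).

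**Figure D3:**
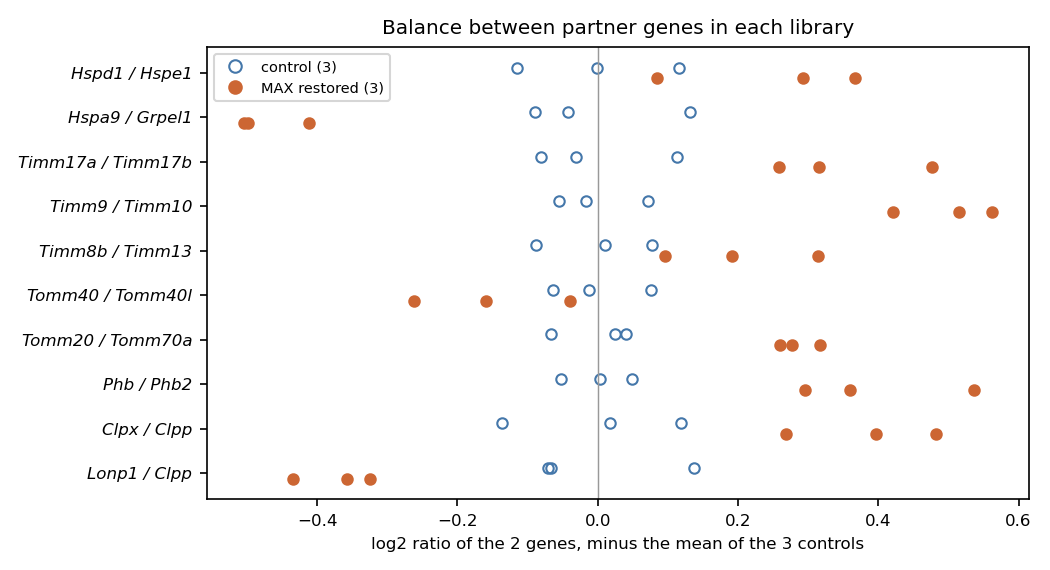
Log2 ratio of 2 partner genes in each library, per length and minus the mean of the 3 controls, for 10 pairs. Open circles are controls and filled circles MAX restored libraries, and the groups are separate in 8 pairs and overlap for Hspd1 over Hspe1 and Tomm40 over Tomm40l.

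Further genes of the pathway were read from 8 lists, with the share lower (32.3%) and higher (31.2%) among all genes as the background. Among partners of the translocases 5 of 8 were lower, led by Dnlz, which keeps mortalin soluble (log2 -0.50, SE 0.07), the J-protein gene Dnajc15 (-0.44, SE 0.09) and Timmdc1, an assembly factor of complex I (-0.35, SE 0.08). With the gene length trend removed 3 of 8 were lower, Dnajc15 among them at -0.24. Grpel2, the second exchange factor of mortalin, was higher, from 49.8 ± 3.84 to 66.5 ± 2.45 CPM (log2 0.42, SE 0.06, SD with n = 3), where Grpel1 was lower. Presequence processing enzymes were lower in 5 of 8, among them Nln, a peptidase (log2 -1.11, SE 0.06), Pitrm1, which degrades cleaved presequences (-0.56, SE 0.05), and Pmpcb, a subunit of the processing peptidase (-0.40, SE 0.05). The oxidative import list of the intermembrane space was lower in 6 of 9. Its central oxidoreductase gene Chchd4 went from 47.6 ± 1.23 to 25.6 ± 2.07 CPM (log2 -0.89, SE 0.07), Chchd10 had -0.54 (SE 0.06) and Gfer, which reoxidises CHCHD4, had -0.61 (SE 0.07).

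The list of outer membrane assembly and cristae organisation (MICOS) genes had 7 of 13 lower and 2 higher. Samm50, the barrel assembly channel, fell with -0.54 (SE 0.05), Chchd6 with -0.51 (SE 0.06) and Mtch2 with -0.40 (SE 0.05), while Dnajc11 (0.33, SE 0.05) and Minos1 (0.33, SE 0.05) rose. Other mitochondrial proteases and their regulators were lower in 5 of 9, with Stoml2 at -0.57, Afg3l1 at -0.42 and Htra2, a protease of the intermembrane space, at -0.73, and the deubiquitinase gene Usp30 was higher (0.34). Factors of the mitochondrial stress response were lower in 7 of 13 tested. Atf4 fell with -0.92 (SE 0.03), Pprc1, a coactivator of mitochondrial biogenesis, with -0.87 (SE 0.06), and Atf5, the factor linked to the mitochondrial unfolded protein response, with -0.50 (SE 0.04).

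The lists of cytosolic chaperones and of mitophagy had about as many higher as lower calls. Cytosolic chaperones that deliver precursors were lower in 2 of 10, Hsp90ab1 and Stip1 (both log2 -0.14), and higher in 2, among them Dnaja2 (0.24). Mitophagy genes were lower in 3 of 9, Sqstm1 (-0.25), Bcl2l13 (-0.17) and Bnip3 (-0.31), and higher in 2, Fkbp8 (0.40) and Pink1 (0.48). Without control 1 the call for Bnip3 was lost (-0.12, adjusted p = 0.138) and 4 mitophagy genes were higher. Of the 8 genes of these lists that rose, 5 lay among tested neighbours that were higher as well. The median log2 fold change of the 50 nearest tested genes was 0.43 around Dnajc11, 0.50 around Minos1 and 0.50 around Pink1 on chromosome 4, and 0.43 around Fkbp8 and 0.41 around Dnaja2 on chromosome 8. Around Grpel2 it was 0.13 and around Usp30 0.06. Among the named genes that fell it was -0.15 around Hsp90ab1, close to that gene's own change. For the 35 tested members this median ran from -0.10 to 0.23 and was within 0.1 of 0 for 33, the others being Tomm20 and Grpel1.

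**Figure D4:**
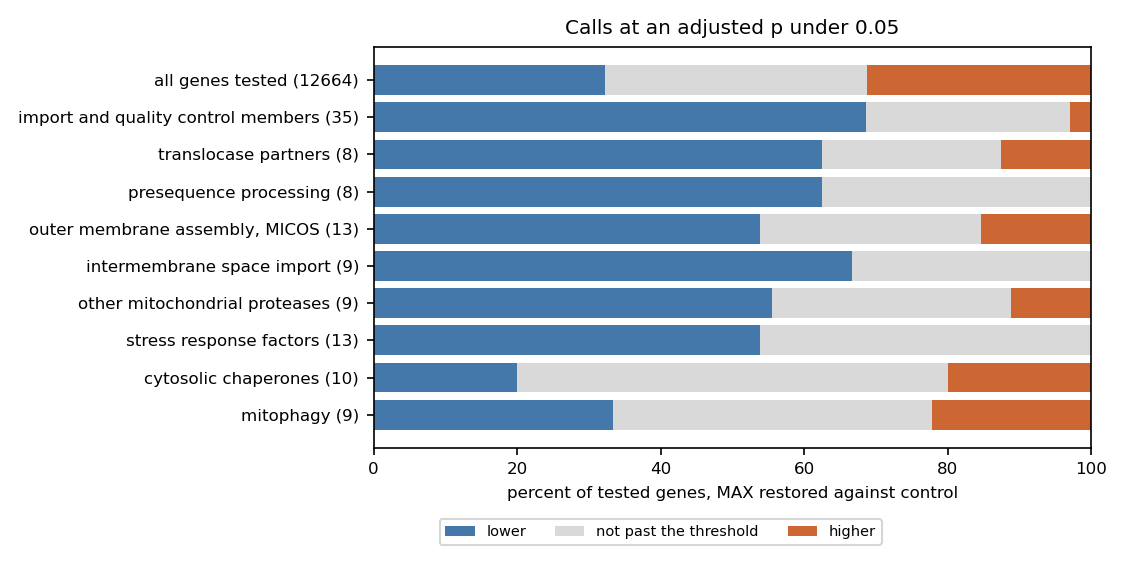
Percent of tested genes called lower, not called and called higher with MAX restored, for all genes, for the 35 tested members and for the 8 further lists, with the number tested in brackets. Lower calls take up 24 of 35 members against 32.3% of all genes, and the cytosolic chaperone and mitophagy lists have as many or nearly as many higher as lower calls.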

How the data were processed

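Per the file headers, the authors counted reads per gene symbol with featureCounts from Subread 1.6.0, without strand, over exons of the UCSC mm9 annotation, and the command sets no option for multi-mapped or ambiguous reads. The deposited values are these raw counts, not normalized. The submitters' processing notes also name bcl2fastq 1.8.4 and STAR 2.5.2a. Per the labels, libraries came from 500 ng of total RNA (TRIzol, NEBNext Ultra kit).

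Genes were filtered with edgeR 4.0.16's filterByExpr (minimum count 10), scaled by TMM and compared between groups by the quasi-likelihood test (two-sided, no covariate, Benjamini-Hochberg, threshold 0.05) in R 4.3.3. SE is the absolute log2 fold change over the square root of F. The scripts were tested on simulated data. Every member is named; values in each library are given for the 12 named genes, the 8 Timm and Tomm genes with the smallest p and the one that rose. Of each further list up to 3 genes per direction with the smallest p are named, apart from one that is not reported here. Members, lists and pairs were chosen with earlier results of these data known. The comparison of partner ratios was added after the values were seen. Near-identical copies were sought with BLAST among GENCODE M21 transcripts (at least 95% identity over 200 bases). Alternatives were RLE and upper quartile scaling, no filter, DESeq2 1.42.0, limma 3.58.1 voom, a replicate block, the gene length trend removed (lowess, span 0.3), a threshold of 0.01 and leaving out each library. Library totals, 10046899 to 11925909 counts, limit the precision of the least abundant genes.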

Additional observations from a re-analysis of the deposited data

How the results depend on the processing

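The number of members called lower lay between 23 and 25 under every alternative run. The number called higher was 1 in each, apart from 2 (Tomm20 and Tomm22) with the gene length trend removed. The median log2 fold change of the 35 tested members was -0.24 with that trend removed, and it ranged from -0.36 to -0.30 when 1 library was left out. The replicate numbers did not pair the libraries: same-numbered libraries deviated together with r of 0.00351, 0.0355 and -0.0241. With the replicate number as a block, 24 members were lower, 1 was higher and the median was -0.34, and no member's call changed.

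Direction changed only for members that had not passed the threshold. With the gene length trend removed the log2 fold changes were 0.0255 for Tomm5, 0.0748 for Timm17a, 0.0552 for Timm8b and 0.0215 for Phb. Leaving out 1 library gave -0.0272 (without MAX restored library 1) to 0.0973 for Tomm22, which was also below 0 without control 2 (-0.0123). It gave -0.457 to 0.0616 for Timm23 and -0.0898 to 0.0258 for Phb, both positive without MAX restored library 2, and Phb also without control 1 (0.00300). For Tomm6os it gave -0.0421 (without MAX restored library 1) to 0.473. The causes were not tested.

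Depth limits Timm23, Timm8a1 and Tomm6os, at 74 to 89 counts over all libraries, and Tomm20l and Timm8a2, with 9 and 2. The MAX restored to control ratio of Tomm20l was 1.15 (95% exact binomial interval 0.248 to 5.80, counting error only, as reads carry no molecular identifiers and PCR copies are counted again). Further lists with few calls moved by over 1.5 times. The oxidative import list had 2 higher genes with the length trend removed and 1 without control 1, against none otherwise. The stress response list had 1 higher with upper quartile scaling, with the replicate block, without control 2 and without MAX restored library 1. The call for Bnip3 was also lost with DESeq2 (adjusted p = 0.147) and without MAX restored library 2 (0.0518) or library 3 (0.0592).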
